A study of Rattus norvegicus with 20 samples.

Results

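The genes described here encode voltage-gated sodium, potassium and calcium channels, hyperpolarization-activated (HCN) channels, CLC chloride channels and transporters, and transient receptor potential (TRP) channels, in the olfactory and respiratory epithelium of the rat nose. They were taken by symbol: every gene on the array whose symbol starts with Scn, Hcn, Trpa, Trpc, Trpm or Trpv (followed, for Scn and Hcn, by a digit), or with Kcn, Cacn or Clcn. This gave 137 genes on 214 probe sets, of 14217 named genes and 31042 probe sets tested. A gene on several probe sets, as were 49 of the 137, stands for the probe set with the highest mean signal over all arrays. The symbol rule brought in 1 gene that encodes no channel, Trpc4ap, a protein that binds a TRPC channel. The symbol rule itself uses no measured value, but it was chosen with earlier results of these data known.

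RNA was measured on 20 arrays, 1 per sample, from 13 untreated adult Sprague-Dawley rats without genetic modification. Males gave 6 olfactory and 6 respiratory samples, and females gave 2 olfactory and 6 respiratory samples. The rats were 11 to 14 weeks old, and the 2 female olfactory samples came from rats of 13 and 14 weeks. Both tissues were sampled in 7 animals, 5 males and 2 females. The epithelium was scraped off the nasal septum and turbinates and is a mixture of cell types, so fewer cells of a type and less RNA per cell cannot be told apart in any of the values below.

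Voltage-gated channels open when the membrane potential changes: sodium channels carry the upstroke of the action potential, potassium channels end it and set the firing rate, and calcium channels couple it to transmitter release. In the olfactory epithelium sensory neurons turn odour binding into a receptor current and fire action potentials along their axons to the olfactory bulb. In the respiratory epithelium potassium channels of the basolateral membrane supply the driving force for chloride and fluid secretion onto the airway surface. Auxiliary subunits have no pore of their own and set the gating and the number of channels at the surface.

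The tissue labels were checked against 10 measured markers of mature olfactory neurons, of which 9 were called higher in male olfactory samples and none lower. Their summed signal was 64968 to 75589 in male olfactory, 2946 to 12755 in male respiratory, 77382 and 78317 in female olfactory and 4233 to 25987 in female respiratory samples. Of 9 markers of goblet and gland cells, 6 were called lower in male olfactory samples, and of 8 basal cell markers 6 were. Control probe sets that match no rat gene gave a background signal of 28.2 to 64.9 by array, which is 5.47 to 6.34 on the log2 scale used here. That scale is log2 of the signal plus 16, and it understates the change of genes near background. Male respiratory 7 and female respiratory 8 lay apart from the other respiratory arrays, and the counts are given below without them too. The RNA integrity number was 8.2 to 8.8 in 5 male olfactory and 9.1 to 9.3 in 4 male respiratory samples. It was 8.3 in both female olfactory samples and 8.7 to 9.3 in female respiratory samples.

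Olfactory and respiratory epithelium differed in many of the channel genes, in both directions. In males 32 channel genes were called higher in olfactory epithelium, among them 4 of 12 sodium channel genes, 10 of 31 voltage-gated potassium channel genes and 6 of 24 calcium channel genes. A further 15 were called lower, among them 4 of 15 inward rectifiers, 2 of 11 tandem-pore channels and 2 of 4 KCNE subunits. The highest difference was that of Scn4b, 16.5-fold higher in olfactory epithelium, and the lowest that of Kcne1, which was above background on all respiratory arrays and on 2 of 6 male olfactory arrays. A call is an adjusted p under 0.05 in limma's moderated test, with Benjamini-Hochberg adjustment over 31042 probe sets. The 34.3% of channel genes called either way lay close to the 31.8% of all named genes. By direction, 23.4% of the channel genes were called higher, against 14% of all genes, and 10.9% lower, against 17.8%. The male counts by family, here and below, are to be read beside these shares of all genes. Of the 137 channel genes, 24 were called higher and 8 lower with groups that did not overlap. Of all 14217 named genes, 1043 (7.34%) and 1392 (9.79%) were. The median difference of the 137 genes was 0.19 on the log2 scale, beside -0.05 over all genes. Of the 7 animals with both tissues, all 7 showed the direction for 27 of the 32 genes called higher and for 12 of the 15 called lower. The arrays of the 5 males among these animals entered the contrast that chose these genes, so this count is no separate support. It was not made over all called genes.

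RNA quality did not overlap between tissues in either sex. The female contrast is not given with the RNA integrity number added. For males the number was added to the model, on the arrays that have one. There 20 channel genes were called higher and 6 lower, and 24 of the 47 calls were kept. On the same arrays without it 31 were called higher and 14 lower. Against the fit to all 20 arrays, which also differs in its arrays, the standard error of the 47 genes was 1.8 times as large at the median. Of the 23 calls lost, 9 had a difference of the same sign and at least the same size, 13 of the same sign and smaller, and 1, Kcns1, turned its sign. The lost calls were those of Cacna1h (1.84 before and 2.01 with the number added), Scn3a, Kcnip2, Kcnip3, Kcnh2, Kcnk10, Kcnk1, Cacna1c and Trpv6, none of them smaller, and of Kcnh6 (2.45 and 1.95), Kcnk6 (-1.66 and -1.32), Kcnk12 (1.81 and 1.17), Hcn2 (1.32 and 0.96), Kcnj1, Kcnj3, Kcnj5, Kcnj15, Kcna6, Kcnh1, Kcnk2, Kcnmb4 and Trpv5, each of them smaller. The other 24, Scn4b, Scn9a, Kcnc4, Kcna5, Kcne1, Kcnn4 and Kcnj16 among them, kept their calls.

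Of the 47 male calls, 39 held whichever male array was left out, and 8 calls of small difference did not. Limma's adjusted p rose most for Trpv5 without male olfactory 10 (0.127), for Clcn6 without male respiratory 8 (0.124), for Kcns1 without male respiratory 3 (0.121), for Cacna1c without male respiratory 2 (0.11) and for Trpv6 without male olfactory 2 (0.0988). The calls of Kcnk2 (0.0628 without male respiratory 3), Kcnj15 (0.0519 without male olfactory 4) and Kcnh2 (0.051 without male respiratory 2) were lost by less. Trpv5 and Kcns1 lost their calls with 9 of the 12 arrays, Cacna1c and Clcn6 with 7, Trpv6 with 6, Kcnk2 with 4, Kcnj15 with 2 and Kcnh2 with 1. Without male respiratory 7 and female respiratory 8 the male counts were 33 higher and 16 lower. Of the 47 genes called in males, 23 had other probe sets on the array. For 11 of these genes another probe set was called the same way, and for 0 the other way.

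**Figure D1:**
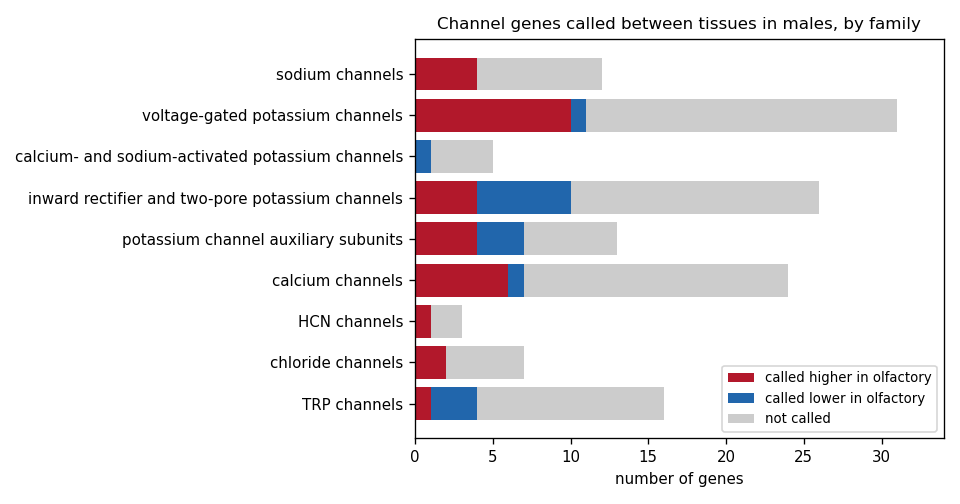
Number of channel genes per family (horizontal axis, count of genes) called higher, called lower or not called in male olfactory against male respiratory epithelium, 6 arrays each. Voltage-gated potassium channels held 10 genes called higher and 1 called lower, and inward rectifier and tandem-pore (labelled two-pore) channels 4 higher and 6 lower.

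The 250 bases before the transcription start are shown for the 2 genes with the widest male difference in each direction among those with a promoter entry, so that genes of opposite direction can be set side by side. RefSeq's promoter table for the GRCr8 build held 101 of the 137 genes, 23 of them called higher, 11 called lower and 67 not called. The sequences are printed 5′ to 3′ on the gene's strand, with each CpG dinucleotide in capitals. Scn4b is at chr8:54343623-54343872 on the plus strand, Kcnh4 at chr10:86188477-86188726 on the minus strand, Kcne1 at chr11:45077034-45077283 on the minus strand and Kcnj16 at chr10:96517074-96517323 on the plus strand.
Scn4b: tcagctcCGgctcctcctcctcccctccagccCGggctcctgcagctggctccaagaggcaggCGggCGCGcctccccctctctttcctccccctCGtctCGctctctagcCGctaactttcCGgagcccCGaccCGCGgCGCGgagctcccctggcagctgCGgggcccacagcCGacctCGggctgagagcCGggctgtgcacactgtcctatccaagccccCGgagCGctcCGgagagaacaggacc
Kcnh4: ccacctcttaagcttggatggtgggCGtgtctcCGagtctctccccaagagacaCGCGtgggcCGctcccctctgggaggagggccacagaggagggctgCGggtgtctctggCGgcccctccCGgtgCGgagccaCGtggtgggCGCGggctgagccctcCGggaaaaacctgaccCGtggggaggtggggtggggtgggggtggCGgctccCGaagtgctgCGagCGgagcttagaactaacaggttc
Kcne1: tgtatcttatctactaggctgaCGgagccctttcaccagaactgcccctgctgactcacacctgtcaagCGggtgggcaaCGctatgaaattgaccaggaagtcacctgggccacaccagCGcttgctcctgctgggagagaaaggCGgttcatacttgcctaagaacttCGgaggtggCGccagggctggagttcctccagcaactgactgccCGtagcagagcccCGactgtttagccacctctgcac
Kcnj16: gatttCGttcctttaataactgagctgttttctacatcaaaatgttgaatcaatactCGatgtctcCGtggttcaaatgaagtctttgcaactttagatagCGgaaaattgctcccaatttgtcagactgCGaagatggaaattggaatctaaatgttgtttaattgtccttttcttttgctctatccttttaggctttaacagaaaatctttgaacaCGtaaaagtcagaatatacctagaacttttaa
The 2 genes higher in olfactory epithelium held 21 (Scn4b) and 18 (Kcnh4) CpG dinucleotides in this window, and the 2 lower genes 9 (Kcne1) and 6 (Kcnj16). Over all entries the count ranged from 3 to 44 with a median of 18 in genes called higher, from 0 to 24 with a median of 6 in genes called lower, and from 1 to 56 with a median of 13 in genes not called. The median of all 27457 promoters in the table was 6. These ranges overlapped widely, and no test was made.

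A set of 5 motif forms was searched on both strands of the same 250 bases, without regard to overlap between them. The motif of the Olf/Ebf factors of olfactory neurons was searched first in its longer form, the core below with T before and A after it, which was in 0 of 101 channel promoters and in 0.736% of all promoters. Its core CCCNNGGG was added after that result was seen, and it was in 20 of 101 channel promoters and in 11% of all. By call, 6 of 23 promoters of genes called higher, 2 of 11 of genes called lower and 12 of 67 of genes not called held the core. The core is made of G and C, and the median GC content was 68% in genes called higher, 54.4% in genes called lower, 61.2% in genes not called and 52% in all promoters, so the part of base composition in these counts was not tested. The 2 forms thus gave different pictures, and neither count is used further. The homeodomain core TAATTA was in 3 of 101 channel promoters and in 4.94% of all. The left part of the REST motif, TTCAGCACC, was in 2 of 101 and in 0.317% of all, and 1 of these 2 was Kcnh6, a gene called higher. The TATA box TATAAA was in 7 of 101 and in 13.1% of all, and Kcnj1, called lower, held both it and TAATTA. A match is a description of the letters, and no match says only that these letters are not in this window.

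Sodium channel genes rose in olfactory epithelium where they changed at all: of 12 genes, 4 were called higher and none lower in males. These were 2 of 9 pore subunits, Scn9a and Scn3a, and 2 of 3 auxiliary beta subunits, Scn4b and Scn3b. Scn4b, whose product lets sodium channels reopen during repolarization, read 11.50, 11.68 and 12.12 (lowest, median and highest) in male olfactory and 7.24, 7.62 and 8.32 in male respiratory samples. Every olfactory sample lay above every respiratory sample. The difference was 4.05 on the log2 scale (SE 0.35, adjusted p 1.91e-08 in limma's test). In females the olfactory samples read 12.59 and 12.50 and the respiratory samples 7.57, 8.41 and 10.49, a difference of 3.88 (SE 0.50, adjusted p 1.41e-05 in limma's test).

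Scn9a encodes the pore of the main sodium channel of peripheral sensory neurons, olfactory neurons among them. It read 11.55, 11.83 and 12.29 in male olfactory and 7.74, 8.29 and 9.90 in male respiratory samples, with no overlap. The male difference was 3.40 (SE 0.39, adjusted p 5.89e-07 in limma's test) and the female one 2.14 (SE 0.55, adjusted p 0.00826). Scn3b, a beta subunit that slows inactivation, was high in both tissues: it read 10.71, 12.17 and 13.02 in male olfactory and 8.04, 9.48 and 10.95 in male respiratory samples. Its groups overlapped, since the highest respiratory sample passed the lowest olfactory one. It was called in males (2.60, SE 0.45, adjusted p 0.00011 in limma's test) and not in females (1.33, SE 0.63, adjusted p 0.153). Scn3a, a pore subunit prominent in developing neurons, was called in males at 1.45 (SE 0.41) and stood at 0.70 (SE 0.58) in females.

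The other sodium channel genes were not called. Scn7a, the atypical sodium channel of glia and epithelia that responds to extracellular sodium, was above background on all 20 arrays. Its male difference was 0.19 (SE 0.26) and its female difference -1.05 (SE 0.37, adjusted p 0.0524 in limma's test). Scn10a, of pain-sensing neurons, was above background on 19 arrays with a difference of 0.37 (SE 0.31) in males. Scn1a, Scn2a, Scn8a, Scn11a and Scn4a, the last of skeletal muscle, were above background on 3, 5, 2, 3 and 1 of the 20 arrays. Scn2b, a beta subunit, stood at -0.55 (SE 0.33) in males.

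Of 31 pore subunits of voltage-gated potassium channels, 10 were called higher in male olfactory epithelium and 1 lower. Kcnc4, a Shaw-type subunit of fast-inactivating channels, read 11.26, 11.39 and 11.99 in male olfactory and 7.32, 8.04 and 8.31 in male respiratory samples. Female olfactory samples read 12.005 and 12.27, against 7.72, 8.17 and 9.48 in female respiratory samples. Neither sex showed overlap, and the differences were 3.55 (SE 0.24, adjusted p 9.62e-10 in limma's test) in males and 3.82 (SE 0.34, adjusted p 5.86e-07) in females. A second and dimmer Kcnc4 probe set, above background on 10 arrays, gave -0.46 (SE 0.39, not called) in males.

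The Shaker-type genes Kcna5, Kcna2 and Kcna6 were called higher in males, 3 of 6 genes of that subfamily. Kcna5, a delayed rectifier subunit, read 10.19, 10.42 and 10.68 in male olfactory and 7.27, 7.42 and 7.78 in male respiratory samples. The groups lay far apart: the difference was 2.94 (SE 0.22, adjusted p 2.35e-09 in limma's test), and 3.21 (SE 0.31) in females. Kcna2, a subunit of axons, read 8.87, 9.94 and 10.62 against 4.66, 7.12 and 8.16, with the lowest value in male respiratory 7. Its male difference was 2.96 (SE 0.45) and its female one 1.31 (SE 0.64, adjusted p 0.169 in limma's test, not called). A second and dimmer Kcna2 probe set, above background on 18 arrays, was called higher in both sexes. It gave 1.26 in males and 0.95 in females (adjusted p 0.0488 in limma's test). Kcna6 was called at 1.22 (SE 0.25) in males, while its 2 dimmer probe sets gave -0.41 and -0.58 without a call. In the RefSeq gene order Kcna5, Kcna1 and Kcna6 are direct neighbours on chromosome 4, and Kcna1, between the 2 genes called higher, was above background on no array.

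Among the ether-a-go-go genes 4 of 8 were called higher and 1 lower in males. Kcnh4 and Kcnh3 belong to the Elk group, which is mainly neuronal. Kcnh4 read 8.84, 9.17 and 9.31 in male olfactory samples and 4.39, 5.37 and 6.84 in male respiratory samples, where it was above background on 2 of 6 arrays. The difference was 3.63 (SE 0.47, adjusted p 3.06e-06 in limma's test) in males and 2.90 (SE 0.66, adjusted p 0.00362) in females. Kcnh3 was higher by 1.62 (SE 0.19) in males and 1.84 (SE 0.27) in females. Of the Erg group, which carries slowly deactivating repolarizing currents, Kcnh6 was higher by 2.45 (SE 0.35) in males and 1.48 (SE 0.49) in females. It was above background on all 8 olfactory arrays but on 1 of 6 male and 2 of 6 female respiratory arrays, so these sizes are measured against values mostly at background. Kcnh2 was higher by 1.25 (SE 0.38) in males. Kcnh1, the Eag subunit, was called lower in male olfactory samples at -1.03 (SE 0.29), with overlapping groups.

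Kcns3 and Kcns1 encode silent subunits, which form channels only together with Kcnb subunits. Kcns3 read 10.29, 10.97 and 11.27 in male olfactory and 7.45, 8.01 and 8.85 in male respiratory samples. The groups did not overlap, and it was higher by 2.77 (SE 0.24, adjusted p 1.38e-08 in limma's test) in males and 2.55 (SE 0.33) in females. Kcns1 was called at 1.07 (SE 0.39, adjusted p 0.0484 in limma's test) in males, and with the RNA integrity covariate its sign turned to -0.30 (SE 0.64, adjusted p 0.852). Of the Kcnb partners, Kcnb2 was above background on no array. Kcnc2 was not called by its brightest probe set (0.15, SE 0.41), but another of its probe sets, above background on 6 arrays, was called higher in males at 1.81 (SE 0.39).

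**Figure D2:**
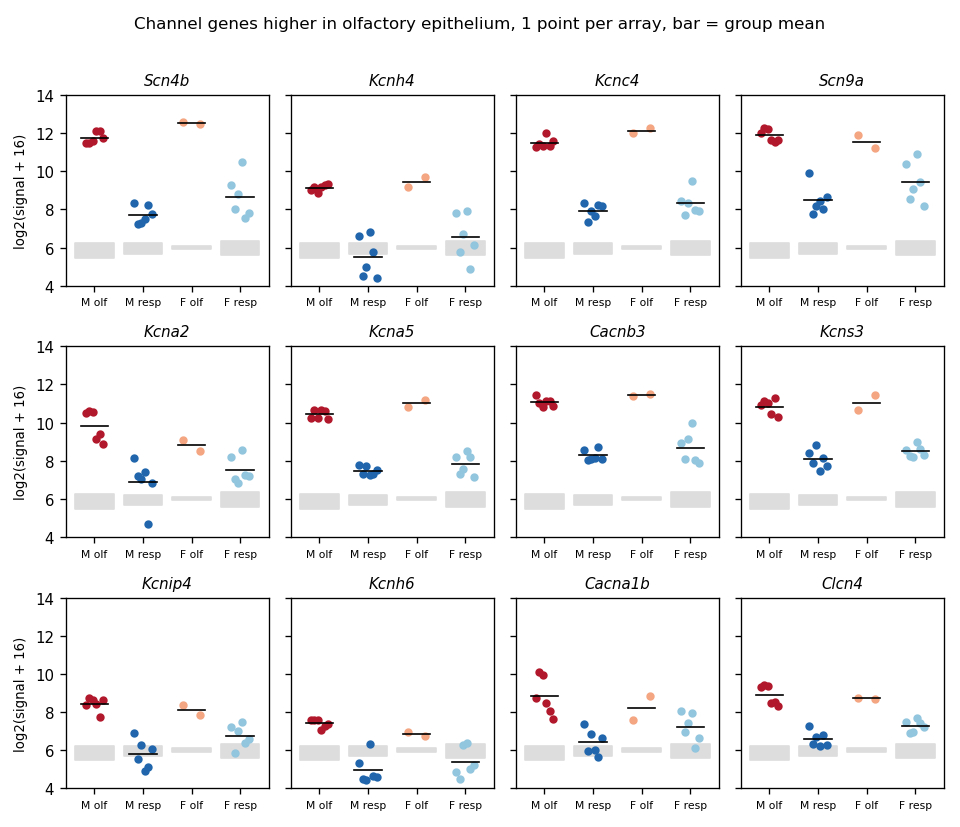
The 12 genes with the largest male difference among genes called higher whose 6 olfactory and 6 respiratory male arrays do not overlap. Each point is 1 array on the log2(signal + 16) axis, the bar is the group mean, the grey band is the range of array background in that group, and M, F, olf and resp stand for male, female, olfactory and respiratory. Scn4b, Kcnc4, Kcna5, Cacnb3 and Kcns3 lay above background in both tissues, while Kcnh4 and Kcnh6 fell to background on most male respiratory arrays.

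The auxiliary subunits of potassium channels held both directions: of 13 genes, 4 were called higher and 3 lower in males. The largest difference of all 137 genes was that of Kcne1, which pairs with the pore subunit Kcnq1 in a slow potassium channel of heart, inner ear and secretory epithelia. It read 4.53, 5.28 and 7.37 in male olfactory samples and 11.59, 12.76 and 13.09 in male respiratory samples. Female olfactory samples read 4.79 and 5.48, against 11.40, 12.40 and 13.16 in female respiratory samples. Kcne1 was above background on all 12 respiratory arrays, on 2 of 6 male olfactory arrays and on neither female olfactory array. The male difference was -6.77 (SE 0.45, adjusted p 5.95e-10 in limma's test). In females Kcne1 was at least 84.7-fold lower in olfactory samples, counted from background, with an adjusted p of 4.08e-07 in limma's test.

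Kcne3, a subunit that holds Kcnq1 channels open in secretory epithelia, read 6.10, 8.16 and 8.57 in male olfactory and 9.98, 10.81 and 11.06 in male respiratory samples. The groups lay apart, with male olfactory 2 lowest by a wide step. The difference was -2.84 (SE 0.31, adjusted p 3.00e-07 in limma's test) in males and -2.18 (SE 0.43) in females. A second and dimmer Kcne3 probe set, above background on 17 arrays, was called in neither sex. It gave -0.57 (SE 0.34) in males and -1.12 in females. The pore subunit Kcnq1 itself was above background on all 20 arrays and its groups overlapped in both sexes. Its difference was -0.47 (SE 0.21, adjusted p 0.103 in limma's test) in males and 0.16 (SE 0.29) in females. Kcne2, a further subunit of the family, stood at -0.13 (SE 0.28) in males.

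Kcnip proteins bind the pore of A-type potassium channels and sense calcium. Kcnip4 was higher in olfactory samples by 2.62 (SE 0.33) in males and 1.38 (SE 0.47) in females, and Kcnip2 by 1.20 (SE 0.24) in males. Kcnip3, which also represses transcription, went the other way: it read 5.71, 7.29 and 8.02 in male olfactory and 8.34, 8.80 and 9.01 in male respiratory samples. Its groups did not overlap, and the difference was -1.72 (SE 0.33) in males and -1.77 (SE 0.46) in females. Kcnab2, a cytoplasmic subunit of Shaker-type channels, was higher by 1.83 (SE 0.22) in males and 2.33 (SE 0.31) in females, and Kcnmb4, the neuronal subunit of the large-conductance calcium-activated channel, by 0.97 (SE 0.23) and 1.18 (SE 0.33).

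Of 5 genes for channels gated by intracellular calcium or sodium, 1 was called lower in male olfactory epithelium and none higher. Kcnn4, the intermediate-conductance channel that supports fluid secretion in airway epithelium, read 4.34, 5.38 and 6.82 in male olfactory and 8.45, 8.84 and 9.49 in male respiratory samples. It was above background on 3 of 6 male olfactory arrays and on all 12 respiratory arrays. The differences were -3.39 (SE 0.38, adjusted p 5.18e-07 in limma's test) in males and -2.67 (SE 0.54, adjusted p 0.00132) in females. Kcnma1, the large-conductance channel, was above background on all arrays and stood at -0.49 (SE 0.23, not called) in males and -0.98 (SE 0.32, called) in females.

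Inward rectifiers hold the resting potential and return potassium across epithelial membranes. Of 15 such genes, 4 were called lower in male olfactory epithelium (Kcnj16, Kcnj1, Kcnj3 and Kcnj15) and 1 higher (Kcnj5). Kcnj16, a subunit of basolateral membranes that senses pH, read 7.16, 7.34 and 8.46 in male olfactory and 8.27, 10.79 and 11.38 in male respiratory samples. The groups overlapped only through male respiratory 7 at 8.27 and male olfactory 2 at 8.46. The next lowest respiratory sample read 10.47, and the next highest olfactory sample 7.60. Female olfactory samples read 6.38 and 4.67, against 9.33, 11.10 and 11.42 in female respiratory samples, where female respiratory 8 was lowest. The difference was -2.96 (SE 0.44, adjusted p 1.86e-05 in limma's test) in males and -5.35 (SE 0.62, adjusted p 5.11e-06) in females. Female olfactory 8 at 4.67 was below background, and without that sample the female difference was -4.49. A second Kcnj16 probe set of like brightness, above background on all 20 arrays, was called lower in both sexes. It gave -2.74 (SE 0.27) in males and -3.27 in females, closer to each other than on the first probe set. The partner of Kcnj16 in other tissues, Kcnj10, was above background on 2 of 20 arrays.

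Kcnj1, the potassium secretory channel of the kidney, read 6.62, 7.62 and 8.13 in male olfactory and 7.86, 8.79 and 9.46 in male respiratory samples. The groups overlapped a little, and the difference was -1.31 (SE 0.34) in males and -1.94 (SE 0.48) in females. Kcnj5, a subunit of channels opened by G proteins and the direct neighbour of Kcnj1 on chromosome 8 in the RefSeq gene order, was higher by 1.32 (SE 0.26) in males. Of 17 pairs of channel genes that are direct neighbours, both genes were called in 2, and Kcnj5 with Kcnj1 was the 1 pair called in opposite directions, as seen after the values. The other pair, Trpv6 and Trpv5, was called lower. Kcnj3, a further G protein-gated subunit, stood at -1.09 (SE 0.27, called lower) in males on its brightest probe set, whereas its other 2 probe sets gave 0.23 and 0.83 without a call. In females Kcnj3 was at least 2.64-fold lower, since both olfactory samples were at background. Kcnj15, which has been described in exocrine glands, was bright in all groups and stood at -0.76 (SE 0.23) in males and -1.62 (SE 0.32) in females, and Kcnj13 was not called (0.63, SE 0.46).

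Tandem-pore channels carry background potassium current. Of 11 genes, 3 were called higher (Kcnk12, Kcnk10 and Kcnk2) and 2 lower (Kcnk6 and Kcnk1) in male olfactory epithelium, beside 14% and 17.8% of all genes. Both genes called lower belong to the TWIK group. Kcnk6 read 6.37, 6.79 and 7.20 in male olfactory and 8.19, 8.50 and 8.71 in male respiratory samples, apart from each other. Its difference was -1.66 (SE 0.24) in males and -2.32 (SE 0.34) in females. A second and somewhat dimmer Kcnk6 probe set, above background on all 20 arrays, was called in neither sex. It gave -0.49 (SE 0.23) in males and -0.59 in females. Kcnk1 stood at -0.81 (SE 0.18) in males and -0.78 (SE 0.26) in females, called lower in both. The female call (adjusted p 0.0374 in limma's test) was lost without any 1 of 7 of the 8 female arrays, with quantile normalization and with the animal as a block. Kcnk10 and Kcnk2 belong to the mechanically gated TREK group, and they were higher by 1.65 (SE 0.31) and 0.69 (SE 0.22) in males. Kcnk12, a subunit silent on its own, was higher by 1.81 (SE 0.29) in males and 1.94 (SE 0.41) in females. Kcnk5, an acid-sensitive channel of epithelia, stood at -0.21 (SE 0.24) in males and was not called.

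**Figure D3:**
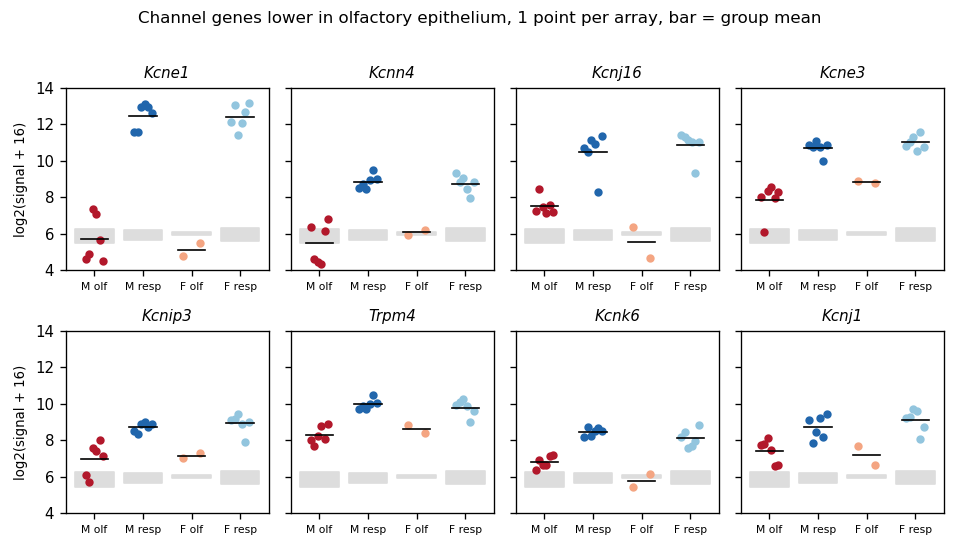
The 8 genes called lower in male olfactory epithelium with the largest difference. Each point is 1 array on the log2(signal + 16) axis, the bar is the group mean, the grey band is the range of array background, and M, F, olf and resp stand for male, female, olfactory and respiratory. Kcne1 fell to background on most olfactory arrays, and the low male respiratory point of Kcnj16 is male respiratory 7 at 8.27.

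Of 24 calcium channel genes, 6 were called higher in male olfactory epithelium and 1 lower. Among 10 pore subunits Cacna1b and Cacna1h were higher and Cacna1c was lower. Cacna1b, the N-type channel of presynaptic terminals, read 7.65, 8.59 and 10.09 in male olfactory and 5.63, 6.32 and 7.37 in male respiratory samples. The groups did not overlap in males, where the difference was 2.41 (SE 0.43, adjusted p 0.000177 in limma's test), and did overlap in females (1.03, SE 0.61, not called). A second and dimmer Cacna1b probe set, above background on 14 arrays, was called higher in both sexes. It gave 2.60 in males and 2.06 in females (adjusted p 0.00501 in limma's test). Cacna1h, a T-type channel that opens at low voltage, was higher by 1.84 (SE 0.39) in males and 1.92 (SE 0.55) in females, but a second probe set of like brightness gave -0.09 (SE 0.32) in males. Cacna1c, the L-type channel of heart and smooth muscle, stood at -0.68 (SE 0.23, adjusted p 0.0369 in limma's test) in males and -1.06 (SE 0.33) in females. Cacna1a and Cacna1d, of neurons and endocrine cells, were not called (0.04, SE 0.46, and 0.88, SE 0.39), and Cacna1s of skeletal muscle was above background on no array.

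Beta subunits carry calcium channels to the membrane, and 3 of 4 were called higher in males. Cacnb3 read 10.80, 11.09 and 11.43 in male olfactory and 8.06, 8.13 and 8.74 in male respiratory samples, and female olfactory samples read 11.50 and 11.41 against 7.89, 8.49 and 9.99. No sex showed overlap, and both differences were 2.78 (SE 0.27, adjusted p 8.64e-08 in limma's test, in males and SE 0.38, adjusted p 3.17e-05, in females). Cacnb2 was higher by 1.16 (SE 0.25) in males. Cacnb4 was at background on all male respiratory arrays, so it was at least 1.11-fold higher in male olfactory samples, with a fitted difference of 1.80 (adjusted p 0.000224 in limma's test). The fourth, Cacnb1, was not called by its brightest probe set (0.08, SE 0.34), while a dimmer one was called higher at 1.89 (SE 0.44). Cacna2d1, an extracellular subunit bound by gabapentin, was higher by 2.05 (SE 0.29, adjusted p 1.09e-05) in males and 1.50 (SE 0.41) in females. Of 8 gamma subunits 0 were called in either sex by limma's test.

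Of the 3 HCN genes, whose channels open on hyperpolarization and pace firing, only Hcn2 was called among the arrays and tests here. It read 9.21, 9.57 and 9.85 in male olfactory and 8.00, 8.20 and 8.54 in male respiratory samples. The groups lay apart, with a difference of 1.32 (SE 0.21, adjusted p 3.67e-05 in limma's test) in males and 1.31 (SE 0.29) in females. Hcn3 stood at -0.05 (SE 0.26) in males, and Hcn4 was above background on no array.

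Of 7 CLC genes, Clcn4 and Clcn6 were called higher and none lower in males. Both encode chloride-proton exchangers of endosomes. Clcn4 read 8.31, 8.91 and 9.42 in male olfactory and 6.20, 6.51 and 7.27 in male respiratory samples, without overlap. The difference was 2.31 (SE 0.25, adjusted p 3.68e-07 in limma's test) in males and 1.43 (SE 0.36) in females. A second and dimmer Clcn4 probe set, above background on 16 arrays, was called in neither sex. It gave 0.91 (SE 0.37) in males and 0.64 in females. Clcn6 stood at 0.64 (SE 0.23, adjusted p 0.0464) in males, with overlapping groups. Clcn2, a plasma membrane channel, and Clcn3, an endosomal exchanger, were not called (0.37, SE 0.26, and -0.17, SE 0.23).

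Of 16 TRP genes, 1 was called higher and 3 lower in male olfactory epithelium, beside 14% and 17.8% of all genes. Trpm4, a calcium-activated channel for monovalent cations, read 7.71, 8.14 and 8.90 in male olfactory and 9.71, 9.94 and 10.47 in male respiratory samples. The groups did not overlap in either sex, and the difference was -1.69 (SE 0.23, adjusted p 6.34e-06 in limma's test) in males and -1.16 (SE 0.33) in females. Trpv6 and Trpv5, calcium-selective channels of absorptive epithelia and neighbours on chromosome 4, stood at -0.87 (SE 0.31, adjusted p 0.04) and -0.68 (SE 0.25, adjusted p 0.049, by limma's test) in males. Trpv5 was the call nearest the threshold, and the nearest gene outside it was Trpc6, a diacylglycerol-gated channel, at -0.83 (adjusted p 0.0648 in limma's test) in males. In females Trpc6 was called, at least 1.35-fold lower in olfactory samples. Trpc1, a partner subunit of other TRPC channels, was higher by 1.38 (SE 0.29, adjusted p 0.00106 in limma's test) in males, where the groups lay apart.

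The TRP channels of sensory signalling showed no call. Trpc2, which transduces pheromone signals in the vomeronasal organ, was above background on all 20 arrays and read 6.86, 7.76 and 8.06 in male olfactory and 7.38, 7.43 and 7.66 in male respiratory samples. These groups overlapped fully (0.14, SE 0.27). Trpm8, the cold sensor, was above background on no array, and Trpv1, the capsaicin receptor, on 3 of 20. Trpv2, Trpv4 and Trpm7 were above background on all arrays and stood at 0.19, -0.51 and -0.11 in males, none of them called.

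In females 25.5% of the channel genes were called, close to the 22.5% of all genes: 21 were called higher in olfactory epithelium, 15.3% against 10.9% of all genes, and 14 lower, 10.2% against 11.6%. The male and female contrasts use different animals. Of the genes called, 33 were called the same way in both sexes, 70.2% of the male and 94.3% of the female calls, and 0 were called in opposite directions by limma's test. All 47 genes called in males had the same sign in females. No such counts over all named genes stand beside these, so nothing particular to channel genes can be read from them. Both contrasts also come from the same fit, with a shared estimate of the spread. The female counts rest on 2 olfactory samples: without either one, 10 or 11 genes were called higher and 7 or 8 lower. Of the 35 female calls 22 were lost when 1 array or another was left out, and 13 held with each left out: Scn4b, Kcnc4, Kcna5, Kcnh3, Kcns3, Kcnab2, Cacnb3, Kcne1, Kcne3, Kcnn4, Kcnj15, Kcnj16 and Kcnk6. With the animal as a fixed block, on the 2 females with both tissues, 8 were called higher (Scn4b, Scn9a, Kcnc4, Kcna5, Kcnh4, Kcns3, Kcnab2 and Cacnb3) and 3 lower (Kcne1, Kcne3 and Kcnj16). Without the 2 respiratory arrays that lay apart, the female counts were 25 higher and 17 lower.

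**Figure D4:**
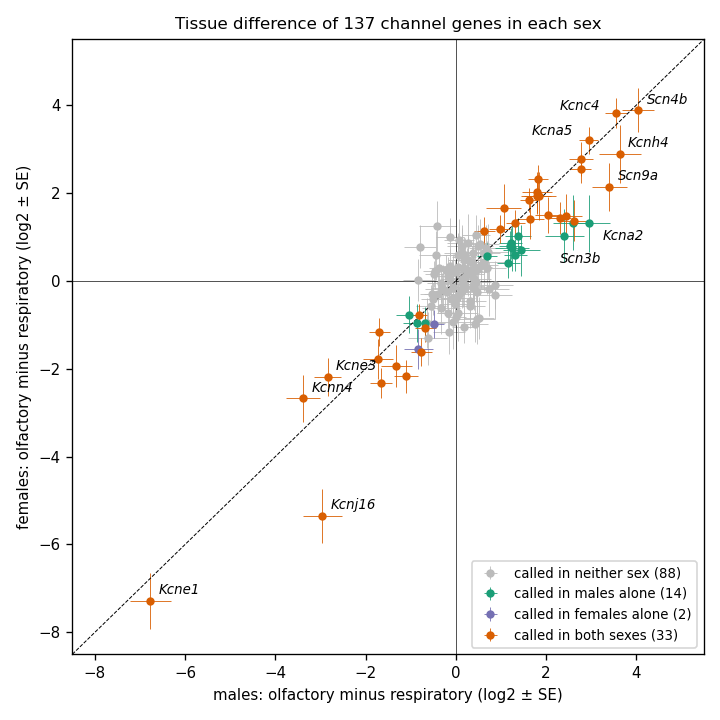
Difference between olfactory and respiratory epithelium of each of the 137 channel genes in males (horizontal axis) and in females (vertical axis), both in log2 with the standard error of the fit as bars, and the dashed line marks equal differences. The 33 genes called in both sexes all lay on the same side of 0 in both sexes. Kcnj16 lay far below the line, at -2.96 in males and -5.35 in females (-4.49 without female olfactory 8). Its second probe set, not plotted, gave -2.74 in males and -3.27 in females.

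No channel gene was called between the sexes. In respiratory epithelium 0 of 137 passed limma's adjusted threshold beside 0.0141% of all genes, and 9 had an unadjusted p under 0.05, as did 3.57% of all genes. In olfactory epithelium 0 passed by limma's test, beside 0.0211% of all genes, and 7 had an unadjusted p under 0.05, as did 3.91% of all genes. The tissue-by-sex interaction gave 0 calls by limma's test among channel genes and 0% of all genes, and 12 channel genes had an unadjusted p under 0.05, as did 3.82% of all genes. The lowest p in the interaction was that of Kcnj16, whose tissue difference was wider in females by 2.39 on the log2 scale (interaction -2.39, SE 0.76, unadjusted p 0.00445 and adjusted p 0.924 in limma's test). Its female tissue difference went from -5.35 to -4.49 without female olfactory 8, which was below background. A second Kcnj16 probe set of like brightness had tissue differences closer to each other, -2.74 in males and -3.27 in females. In respiratory epithelium Kcna4, a Shaker-type subunit, had the lowest p (female minus male 1.06, SE 0.30, adjusted p 1.00 in limma's test). It read 4.22, 4.62 and 5.19 in males and 5.55, 5.60 and 6.22 in females. All 6 male values and 5 of 6 female values were not above their array's background, so this difference lies between values mostly at background. A p that misses the threshold does not show that the sexes are alike.

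Respiratory samples held olfactory neuron markers at different levels, and many channel genes read highest in the same samples. Male respiratory 1 and female respiratory 7 had the highest summed neuron marker signal of their groups, at 12755 and 25987. Of the 32 genes called higher in olfactory epithelium, 16 read highest among male respiratory samples in male respiratory 1, and 19 read highest among female respiratory samples in female respiratory 7. The same count over all genes called higher was not made, so nothing particular to channel genes can be read from these counts. Scn4b read 10.49, Scn9a 10.92 and Kcnc4 9.48 in female respiratory 7, each the highest of all 12 respiratory samples and below every olfactory sample. In male respiratory 7, 9 of the 32 genes read highest, and its neuron markers summed to 6631. The part of these markers in the channel differences was not tested. Without male respiratory 1 the male counts were 31 higher and 14 lower, and without female respiratory 7 the female counts were 22 higher and 13 lower.

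**Figure D5:**
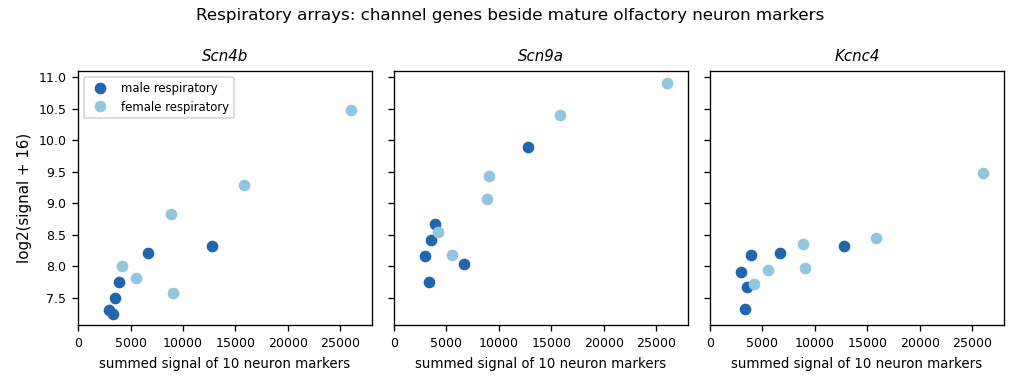
The 12 respiratory arrays by the summed signal of 10 mature olfactory neuron markers (horizontal axis, linear signal) and the level of Scn4b, Scn9a and Kcnc4 (vertical axis, log2(signal + 16)), 1 point per array. The rightmost point in each panel is female respiratory 7, with a marker sum of 25987.

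Markers of other cell types were measured beside the channels. Of 9 leukocyte markers 8 were called lower in male olfactory epithelium and none higher, with sums of 1286 to 2508 in male olfactory and 3744 to 14459 in male respiratory samples, which did not overlap. Of 10 markers of smooth muscle and pericytes 4 were called lower and 1 higher, with sums of 3576 to 8361 and 5394 to 8906. Of 8 endothelial markers 3 were lower and 1 higher (2401 to 6155 and 2271 to 3345), of 8 glial markers 2 were lower and 4 higher (8724 to 23300 and 3927 to 7084), and of 7 mast cell markers 1 was lower and 4 were higher (2177 to 7679 and 961 to 2212). Channel genes called lower such as Kcnn4, which leukocytes also use, and Cacna1c, also of smooth muscle, stand beside these markers, and the part of these cell types in the channel differences was not tested. Of 8 markers of trigeminal sensory neurons, 1 was called higher and 2 lower in male olfactory epithelium, and their summed signal was 1260 to 1691 in male olfactory and 2330 to 5804 in male respiratory samples. Of 11 skeletal muscle markers, 1 was called higher and 2 lower, with sums of 5167 to 14053 and 6338 to 13218. Of 12 markers of immature olfactory neurons, 11 were called higher and none lower. Of 7 ionocyte markers none was called higher and 2 were called lower. Their part in the channel differences was not tested.

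Genes that work with these channels were counted as well. Of 25 measured partners of voltage-gated channels, 10 were called higher in male olfactory epithelium and 2 lower. Fgf12, which binds sodium channel tails, was higher by 4.26 (SE 0.47), Sptbn4, the spectrin of the axon initial segment, by 3.80 (SE 0.41), and Dlg2, a scaffold that clusters potassium channels, by 2.71 (SE 0.33). Fgf14, a relative of Fgf12, stood at -0.98 (SE 0.34), and Nedd4l, a ligase that removes channels from the membrane, at -1.11 (SE 0.24), and both were called lower. Of 9 channels and exchangers of odour transduction, 4 were called higher and none lower: Ano2, the calcium-activated chloride channel of olfactory cilia, by 4.30 (SE 0.48), the cyclic nucleotide-gated subunits Cnga2 by 4.18 (SE 0.40) and Cnga4 by 3.59 (SE 0.56), and the exchanger Slc24a4 by 3.55 (SE 0.35). Of 17 genes of airway salt and water transport, 2 were called higher and 5 lower, among them the chloride channels Cftr at -1.81 (SE 0.40) and Ano1 at -1.74 (SE 0.38) and the water channel Aqp4 at -1.96 (SE 0.19). Of 50 other ion channel genes outside the symbol rule, 6 were called higher and 14 lower.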

How the data were processed

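RNA from 20 nasal samples was measured on 1 rat expression array each. The authors deposited intensity values, a linear signal per probe set, and the submitters' processing notes name GCOS 1.0, with no algorithm or scaling target stated there. The mean after trimming 2% at each end was 500.1 to 500.3 on every array, and this deposited scaling was kept. Groups follow sex and tissue in the labels.

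Of 31099 probe sets 57 controls were left out. The annotation gave 1 symbol for 20826, several for 436 (not named) and none used here for 9780. Signals were taken to log2 after adding 16, and limma 3.58.1 in R 4.3.3 fitted 4 group means over 20 arrays with a variance trend. The tissues were compared within each sex (olfactory minus respiratory), the sexes within each tissue (female minus male), and the interaction was tested. Every p is two-sided, and adjusted p-values are Benjamini-Hochberg over 31042 probe sets. The code was tested on simulated data. Each array's background was the 95th percentile of its signals on 27 probe sets for bacterial controls, and bounds are counted from it.

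Arrays with the same sex and number come from 1 animal per the labels. Their deviations from group means correlated by -0.184 to 0.246, above 0.1 in 4 of 7 animals. Nothing in the labels names a shared array batch. Arrays are the replicates, and their number, 2 in female olfactory epithelium, limits the precision.

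Named genes are up to 12 per direction with the largest male change and no overlap, the most changed gene of each family, the lowest p in sex contrasts, and a fixed list of channels. Other genes named because they were called, and their second probe sets, were chosen after their values were seen. The members and lists were chosen with earlier results of these data known. Alternatives covered the offset (1 and 64), quantile normalization, a filter on dim probe sets, the mean over probe sets, each array left out, animal as a block, age, RNA integrity, rats of 11 weeks alone, and, chosen after seeing the data, 2 arrays left out. Promoters and gene order came from RefSeq tables (GRCr8). Of 5 motif forms searched, 1 was added after a longer form of it had matched no channel promoter. Promoters and figures used Python 3.11.15, pandas 2.3.3 and matplotlib 3.10.9.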

Additional observations from a re-analysis of the deposited data

Results flagged for a closer look

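Within each group of 6 samples, a value was marked where its gap to the nearest other sample took a larger part of the group's whole range than Dixon's 95% limit allows. Over 63 named genes and 189 gene and group pairs this marked 27 values. For independent and normally distributed values chance alone marks about 1 in 20, or 5%. The pairs here share arrays, and no share over all genes stands beside this count. Nothing particular to channel genes can therefore be read from it. Values are log2(signal + 16), with the nearest other sample of the group in parentheses, and no explanation was tested.

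Male respiratory 7 held 7 of the 27. It was lowest for Cacna1d at 6.61 (7.19), Kcne3 at 9.98 (10.75), Kcnj16 at 8.27 (10.47) and Trpm7 at 9.59 (10.6). Below background, it was lowest for Kcna2 at 4.66 (6.85) and Kcnj13 at 5.15 (5.91) and highest for Scn8a at 5.96 (4.51). Female respiratory 8 held 5 and was lowest for each: Kcnip3 at 7.92 (8.92), Kcnj16 at 9.33 (11.01), Kcnk1 at 9.68 (10.14) and, below background, Cacna1d at 5.93 (7.49) and Trpc1 at 6.13 (7.5). Kcnj16 and Cacna1d were lowest in both of these arrays, the pair that lay apart from the other respiratory arrays over all genes.

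Male olfactory 2 was lowest for Kcne3 at 6.1 (7.93) and highest for Kcnj16 at 8.46 (7.6) and Scn11a at 5.84 (4.85). Male olfactory 7 was lowest for Kcnip4 at 7.73 (8.38) and highest for Kcnq1 at 9.23 (8.75) and, below background, Hcn4 at 5.26 (4.83). Male olfactory 3 was highest for Kcne2 at 6.87 (6.24). Male respiratory 8 was highest for Clcn2 at 6.68 (6.3), Scn11a at 6.33 (5.04) and, below background, Trpm8 at 4.84 (4.47).

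Female respiratory 7, with the highest neuron marker sum of the respiratory samples, was highest for Hcn2 at 9.2 (8.27) and lowest for Trpv5 at 7.62 (8.2). Female respiratory 6 was lowest for Kcnj3 at 6.79 (7.38). Below background, male respiratory 1 was highest for Hcn4 at 5.06 (4.52) and male respiratory 3 lowest for Scn2a at 4.86 (5.68).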

How the results depend on the processing

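Of the 47 male calls 23 held under every alternative run, and of the 35 female calls 9 did. These 2 counts are not alike. Besides each array left out, male calls faced 12 alternatives and female calls 8. The fits with RNA integrity, with age and with rats of 11 weeks alone are given for males only. The male counts of 32 higher and 15 lower became 20 and 6 with RNA integrity in the model, where Kcns1 turned to -0.30, and stayed at 29 to 33 higher and 11 to 16 lower under the other alternatives. With each male array left out they ranged from 29 to 32 and from 12 to 16. The female counts of 21 and 14 ranged from 10 to 23 and from 7 to 16 with each array left out. They were 11 and 8 without female olfactory 8 and 10 and 7 without female olfactory 6. Each of these fits left 1 female olfactory sample. Loss of a replicate and the values of the dropped array cannot be told apart here, and the part of each was not tested. With the animal as a fixed replicate block the female counts were 8 and 3, on 4 arrays, and the male counts 31 and 13, where the 6 calls lost were those of Cacna1c, Clcn6, Kcnh1, Kcnh2, Kcnj15 and Trpv5. As a random replicate block the animal gave 32 and 15 in males. The 2 sex contrasts and the interaction gave 0 channel calls by limma under each alternative run. Quantile normalization moved the female median of all probe sets from -0.11 to 0.02, and gave 23 and 12 female calls. An offset of 1 widened genes near background, such as Kcne1 to -7.55, Kcnh4 to 4.47 and Cacnb4 to 3.56 in males. Differences of genes near background are limited by the array's signal.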
